A study of Zea mays with 303 samples.

Results

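The SODCC.2 transcript, which encodes a copper-zinc superoxide dismutase, was followed through single cells of early meiotic maize anthers. It is 1 of the 17140 features in the deposited counts and was matched by its symbol. Each sample was 1 fixed cell of the inbred line W23 bz2, grown in a greenhouse under a day of 14 h light and a night of 10 h. The cells were freed from dissected anthers by wall-digesting enzymes after fixation in Farmer's solution, and sorted. Every cell belonged to 1 group, with no treatment, plant or cell type named, so cells were not replicates of a condition and no p-value is given. The gene was chosen with results from these cells in view, so its levels are given as a description.

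Copper-zinc superoxide dismutases turn the superoxide radical into oxygen and hydrogen peroxide, which catalases and peroxidases then remove. Maize carries several such enzymes, and those of the SODCC group act in the cytosol. In the maize gene table of RefSeq the entry with the synonym SODCC.2 is also called sod4 and sod4ap, SODCC.1 is also called sod2, and a further entry, SODCC.3, is also called Sod4A and sod9. The counts hold SODCC.1 and SODCC.2 under their symbols and no feature of the name SODCC.3. Of the 17140 features 16985 bear an identifier alone, so SODCC.3 may be counted under one of these. Reads from SODCC.3, a close relative, may also have been counted with SODCC.2, and how the counting divided them was not tested. The bronze2 gene that gives the line its name encodes, in its working form, a glutathione S-transferase that moves anthocyanin into the vacuole. Its state in this line was not tested, and the line was common to all cells.

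The cells came in 4 library pools numbered 6, 11, 28 and 29, of 55, 78, 79 and 91 cells in that order. The pools are known by their index alone and are treated as technical batches. A unique molecular identifier (UMI) marks each captured transcript copy, and the median cell held 1780 UMIs and the deepest 9934. Median depths were 2942, 2803, 1162 and 1746 UMIs in pools 6, 11, 28 and 29. In all 4 pools the lower barcode numbers (1 to 48) had the higher median depth. Barcode numbers were reused, with 91 of 96 occurring in more than 1 pool, but no 2 cells had identical counts. Doublets were not called.

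SODCC.2 was moderately abundant. It had 270 UMIs over all cells, which placed it at rank 38 among the features that carry a symbol. Its level over all cells was 337.4 counts per 1000000 UMIs (CPM; 95% Poisson interval 298.4 to 380.2). Intervals cover counting error only, not differences between plants. A UMI of it was seen in 42.6% of the cells (exact 95% interval 36.9% to 48.4%), which were 26, 41, 24 and 38 cells of pools 6, 11, 28 and 29. No labelled cell type lacks the gene, so the part of this share that free RNA may give was not measured.

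The pools overlapped in their levels of SODCC.2. Pool 6 stood at 278.8 CPM (209.4 to 363.7), pool 11 at 370.0 CPM (300.4 to 450.9), pool 28 at 309.1 CPM (217.7 to 426.1) and pool 29 at 365.0 CPM (289.9 to 453.7). In rising order the pools were 6, 28, 29 and 11, and the intervals of all 4 overlapped. The lowest cell of each pool had no UMI, the median cell had 0, 1, 0 and 0 UMIs in pools 6, 11, 28 and 29, and the highest had 8, 7, 6 and 10. SODCC.1, by contrast, had intervals in pools 28 and 29 that lay above that of pool 6, at 170.4 CPM (117.3 to 239.2) in pool 6, 237.9 CPM (182.8 to 304.3) in pool 11, 376.0 CPM (274.3 to 503.1) in pool 28 and 464.2 CPM (378.9 to 562.9) in pool 29.

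Detection of SODCC.2 followed depth, while its level did so less. Cells with a UMI of it had a median of 3468 UMIs, and those with none had 1294. When each pool was divided by depth into 3 groups of equal size, 18.0% of the shallow, 45.0% of the middle and 64.1% of the deep cells had a UMI. The levels of these groups were 284.96 CPM (178.6 to 431.4), 413.9 CPM (331.5 to 510.6) and 314.0 CPM (267.4 to 366.4), with no order by depth. Among cells with at least 1000 UMIs, 52.8% had a UMI at full depth and 26.0% would be expected to have one at a depth of 1000 UMIs each. The shares in pools 6, 11, 28 and 29 at that depth were 21.1%, 27.5%, 25.9% and 27.8%, and 87 cells were too shallow. The 46 cells with under 500 features held 1 SODCC.2 UMI in 20607, or 48.5 CPM (1.23 to 270.4), against 345.1 CPM (305.1 to 388.9) in the others.

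A minority of cells held most of the transcript. Cells with 3 or more UMIs numbered 38 and carried 58.9% of the SODCC.2 UMIs, whereas 71 cells had a single UMI and 57.4% of the cells had none. The 38 were picked by their own SODCC.2 count and were deep, with a median of 4853 UMIs against 1780 over all cells. They held 200017 of the 800166 UMIs of all features. Cells with none numbered 29, 37, 55 and 53 in pools 6, 11, 28 and 29, where counting at each cell's depth and the pool's level would give 26.0, 29.2, 53.0 and 46.2. Cells with 5 or more numbered 12 where 5.42 would be given. Measured as the variance over that expected from counting, SODCC.2 stood at 1.496, above 62.2% of the 384 features with a similar number of UMIs. C2 stood at 14.2, GAPC3 at 3.51 and SODCC.1 at 1.17 on the same measure. The cell with most, in pool 29, held 10 SODCC.2 UMIs among 7103, together with 15 of C2, 1 of CAB1 and 3 of GAPC3. The highest cell of pool 6 held 8 among 2861 and had 38 of C2, 2 of CAB1 and 7 of GAPC3. All 12 cells with 5 or more SODCC.2 UMIs had a C2 UMI or at least 3 GAPC3 UMIs: 10 had C2, 5 had the GAPC3 count, and 3 had both. SODCC.1 was present in 10 of them and CAB1 in 7. These cells were deep, with a median of 6470.5 UMIs and a range from 2436 to 9042. Of all cells 31.4% met the C2 or GAPC3 condition, and of the others at least as deep as the shallowest of the 12 it was 50.4%. Those others had a median of 4204 UMIs, below that of the 12, so depth was not matched. SODCC.1 was present in 64.6% of those and CAB1 in 59.3%.

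**Figure D1:**
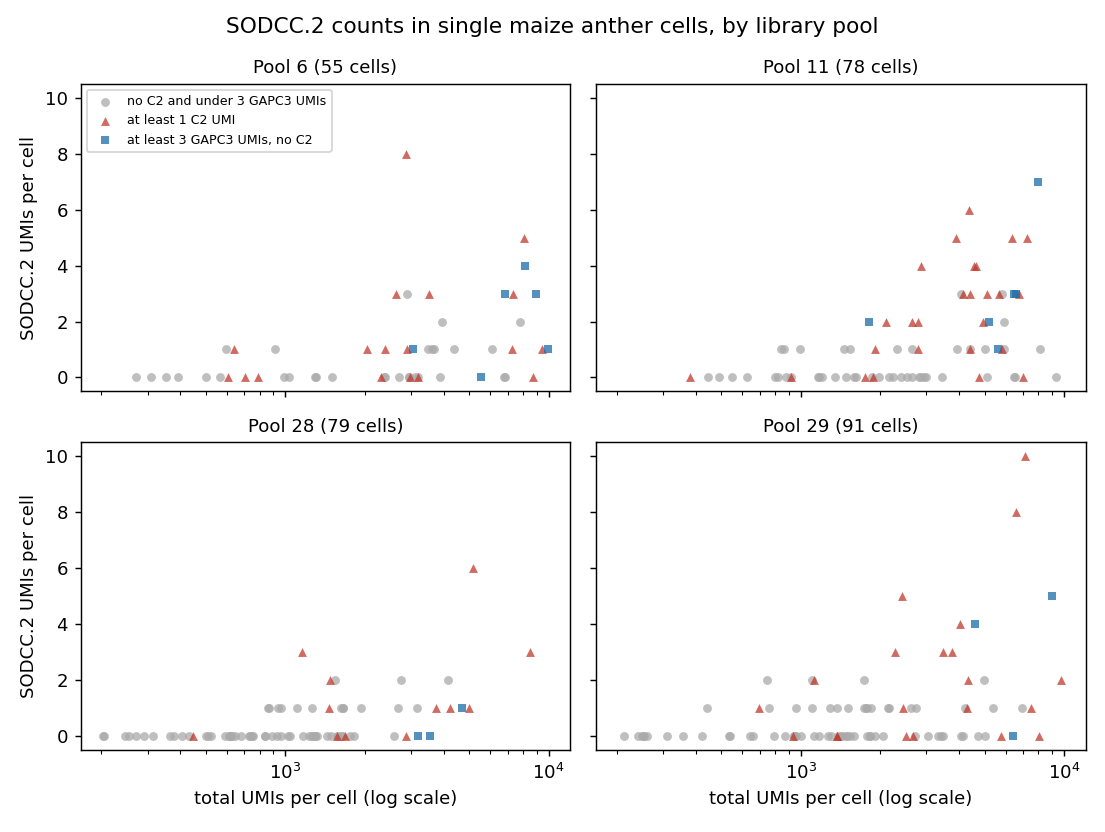
SODCC.2 UMIs of each cell (vertical axis) against the cell's total UMIs (horizontal, log scale), 1 panel per library pool. Triangles are cells with at least 1 C2 UMI, squares cells with at least 3 GAPC3 UMIs and no C2, and grey circles the rest; the 12 cells with 5 or more SODCC.2 UMIs are all triangles or squares.

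SODCC.2 was higher in cells with C2 than in cells without it. C2, colorless2, encodes chalcone synthase, which opens the flavonoid pathway. The 77 cells with a C2 UMI, 25.4% of all, held 56.3% of the SODCC.2 UMIs, with 0, 1 and 10 in the lowest, median and highest cell. The cells without C2 held the rest, with 0, 0 and 7 in the lowest, median and highest cell. The ranges of single cells thus overlapped, while the summed levels stood apart, at 520.5 CPM (441.0 to 610.1) with C2 and 232.2 CPM (192.2 to 278.1) without. The ratio of 2.24 (1.75 to 2.88) corresponds to a log2 ratio of 1.13 after 10 CPM were added to both sides. Of all features with at least 50 UMIs, 3.50% had a log2 ratio of at least 1 in this split, and SODCC.2 ranked 87 of 3170.

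The difference had a similar size in each pool. In pool 6 the level was 409.7 CPM (272.3 to 592.2) in 18 cells with C2 and 207.4 CPM (135.5 to 303.8) in 37 without. Pool 11 had 577.2 CPM (440.5 to 743.0) in 26 cells against 236.1 CPM (167.1 to 324.1) in 52. Pool 28 had 482.8 CPM (286.1 to 763.0) in 12 cells against 230.6 CPM (138.8 to 360.1) in 67. Pool 29 had 557.7 CPM (408.3 to 743.9) in 21 cells against 251.03 CPM (174.9 to 349.1) in 70. The log2 ratios were 0.95, 1.25, 1.03 and 1.12, and 3.09% of the features reached at least 0.5 in all 4 pools. Cells with C2 were deeper, with a median of 3195 against 1494.5 UMIs, and among cells with at least 3000 UMIs the log2 ratio was 1.04.

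**Figure D2:**
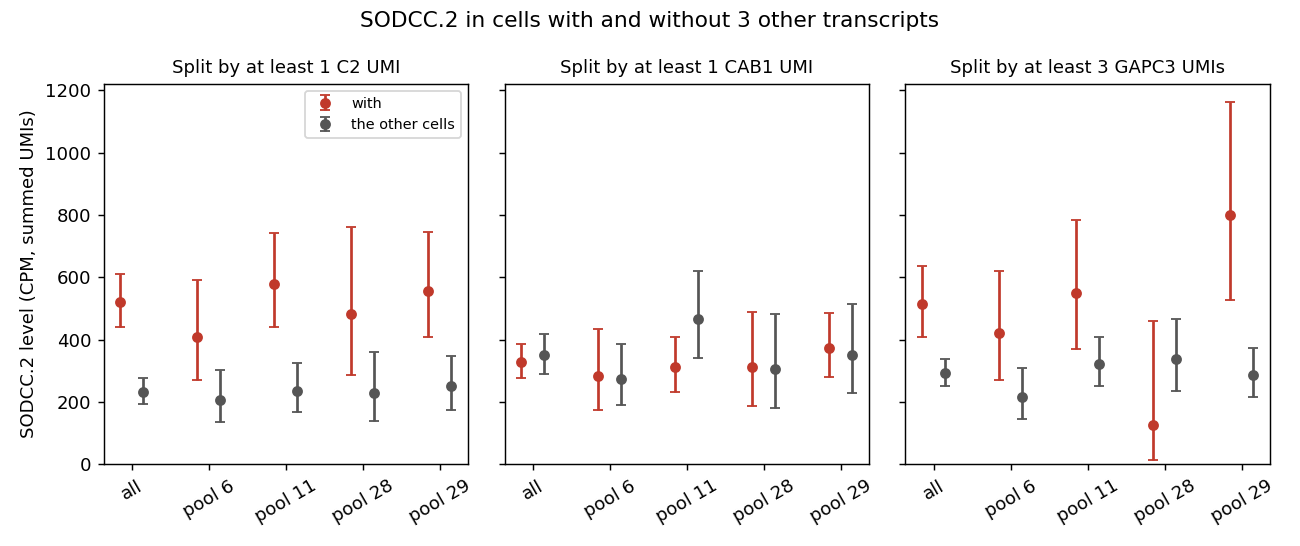
SODCC.2 level in CPM from summed UMIs (vertical axis) in cells with (red) and without (grey) the transcript named above each panel, over all cells and by pool; bars are exact 95% Poisson intervals. With C2 the level is higher in all 4 pools; with CAB1 it is not; with at least 3 GAPC3 UMIs it is higher in pools 6, 11 and 29 and lower in pool 28, where that class has 4 cells.

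More C2 went with more SODCC.2 up to a point. The level was 232.2 CPM in cells with no C2 UMI, 342.1 CPM (251.4 to 455.0) in 38 cells with 1, and 724.0 CPM (477.1 to 1053) in 13 cells with 2 to 4. It was 492.8 CPM (318.9 to 727.5) in 12 cells with 5 to 9 and 795.2 CPM (595.6 to 1040) in 14 cells with 10 or more. The intervals of the 3 upper classes overlapped, as did those of the classes with 0 and 1. Cells with at least 5 C2 UMIs had 2.86 times (2.12 to 3.84) the SODCC.2 level of cells with none, and the levels in pools 6, 11, 28 and 29 were 632.0, 621.3, 843.0 and 709.3 CPM. Read the other way, C2 stood at 176.7 CPM in cells with no SODCC.2 UMI, 607.0 CPM at 1 and 466.5 CPM at 2. It stood at 1870 CPM (1685 to 2069) in the 38 cells with 3 or more. The median of these 38 cells held 1.5 C2 UMIs and the highest 88, so a few cells weighed heavily. The interval covers counting error only.

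CAB1, a chlorophyll a/b-binding protein of the photosynthetic antenna, divided the cells differently. The cells with a CAB1 UMI, 40.3% of all, held SODCC.2 at 327.2 CPM (276.3 to 384.8), with 0, 1 and 10 in the lowest, median and highest cell. The cells without it held 350.4 CPM (291.4 to 417.7), with 0, 0 and 6. The ratio was 0.934 (0.730 to 1.20), so a difference was not detectable at this depth, and the log2 ratios in pools 6, 11, 28 and 29 were 0.04, -0.57, 0.04 and 0.08. The log2 ratio of -0.10 lies beside a median of -0.29 over all features, of which 4.07% were at -1 or below.

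Where CAB1 was abundant, SODCC.2 was low. The level was 571.7 CPM (435.2 to 737.4) in 33 cells with 1 CAB1 UMI, 413.4 CPM (301.5 to 553.2) in 32 with 2 to 4, and 258.99 CPM (162.3 to 392.1) in 26 with 5 to 9. It was 134.01 CPM (81.9 to 206.96) in 31 cells with 10 or more, of which 4 also had a C2 UMI and 1 had at least 3 GAPC3 UMIs. This last class stood at 0.382 times (0.226 to 0.616) the level of cells without CAB1. Its levels in pools 6, 11, 28 and 29 were 126.3, 101.2, 266.6 and 153.4 CPM, from 3, 6, 2 and 9 UMIs, against 275.4, 465.4, 304.8 and 351.0 CPM in the cells without CAB1 of the same pools. The point value was lower in all 4 pools, but the intervals stood apart in pool 11 only, at 37.1 to 220.2 CPM against 342.0 to 618.9 CPM. In pools 6 and 28 the interval of the CAB1-rich cells, 26.0 to 369.1 CPM and 32.3 to 963.2 CPM, includes the level of the cells without CAB1. In pool 29 the intervals of 70.1 to 291.2 CPM and 229.3 to 514.3 CPM overlapped. CAB1 itself stood at 1325 CPM (1202 to 1458) in cells with no SODCC.2 UMI, 1539 CPM at 1 and 1329 CPM at 2. It stood at 294.98 CPM (224.5 to 380.5) in the 38 cells with 3 or more.

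GAPC3, a cytosolic glyceraldehyde-3-phosphate dehydrogenase of glycolysis, went with SODCC.2 in 3 of the 4 pools. The 30 cells with at least 3 GAPC3 UMIs held 84 SODCC.2 UMIs, or 513.6 CPM (409.7 to 635.9), with 0, 3 and 10 in the lowest, median and highest cell. The other cells held 292.2 CPM (251.7 to 337.3), with 0, 0 and 6. The ratio was 1.76 (1.34 to 2.29) and the log2 ratio 0.79. In this split 11.0% of the features had a log2 ratio of at least 1, and SODCC.2 ranked 525 of 3170. The GAPC3 class was deep, with a median of 5575 against 1600 UMIs; among cells with at least 3000 UMIs the log2 ratio was 0.72.

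By pool the GAPC3 class had 419.9 CPM in 11 cells of pool 6 against 216.1 CPM, 549.8 CPM in 10 cells of pool 11 against 323.4 CPM, and 799.6 CPM in 5 cells of pool 29 against 287.03 CPM. In pool 28 its 4 cells held 2 SODCC.2 UMIs, or 127.6 CPM (15.5 to 460.9) against 336.5 CPM, a ratio of 0.379 (0.0442 to 1.48). Summed over the pools, the difference was seen in cells with CAB1 and not in cells without it. In 12 cells with at least 3 GAPC3 UMIs and no CAB1 the level was 353.5 CPM (221.6 to 535.3), against 349.7 CPM (285.1 to 424.5) in the other cells without CAB1. In 18 cells with both it was 611.9 CPM (469.2 to 784.5), against 243.5 CPM (194.2 to 301.5) in cells with CAB1 and fewer GAPC3 UMIs. Of the 62 SODCC.2 UMIs of these 18 cells, 27 came from 4 cells of pool 29, at 987.0 CPM (650.4 to 1436). Pool 29 had 1 GAPC3 cell without CAB1, with 0 SODCC.2 UMIs, so the sums mix the pools unevenly. Pools 6 and 28 departed from the summed pattern. In pool 6 the 5 GAPC3 cells without CAB1 were at 399.2 CPM (199.3 to 714.3) against 238.5 CPM (149.5 to 361.1). In pool 28 the 2 GAPC3 cells with CAB1 held 1 SODCC.2 UMI, or 134.6 CPM (3.41 to 749.9), against 338.4 CPM (200.6 to 534.8) in cells with CAB1 and fewer GAPC3 UMIs. These intervals overlapped in both pools. GAPC3 stood at 189.3 CPM (144.5 to 243.7) in cells with no SODCC.2 UMI, 263.5 CPM at 1 and 226.2 CPM at 2. It stood at 1015 CPM (880.1 to 1165) in the 38 cells with 3 or more, with 2 GAPC3 UMIs in the median and 37 in the highest cell.

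These classes shared cells, and taken apart they ordered as follows. Cells with C2 and neither of the others stood at 619.9 CPM (468.3 to 805.0; 33 cells). Cells with at least 3 GAPC3 UMIs alone stood at 357.0 CPM (223.7 to 540.5; 11 cells), and those with none of the 3 at 228.5 CPM (167.3 to 304.7), with 25, 27, 42 and 42 cells in pools 6, 11, 28 and 29. Cells with CAB1 alone stood at 160.6 CPM (109.9 to 226.7; 72 cells). The interval of C2 alone did not overlap those of CAB1 alone and of none, whereas CAB1 alone and none overlapped, as did GAPC3 alone and each of its neighbours. The mixed classes spread widely. The 32 cells with C2 and CAB1 stood at 356.9 CPM (266.6 to 468.1), below C2 alone, with intervals that only just stood apart, and the 7 cells with CAB1 and GAPC3 stood at 392.2 CPM (232.5 to 619.9). The 11 cells with all 3 transcripts each had a SODCC.2 UMI and together reached 793.9 CPM (576.8 to 1066); their median depth was 4415 UMIs, against 2436 in the cells with C2 alone. Within pools 6, 11, 28 and 29 the C2-alone class had 434.3, 733.1, 845.9 and 643.9 CPM and the CAB1-alone class 261.4, 88.5, 281.5 and 159.9 CPM. Cells with none of the 3 had 133.3, 269.6, 235.1 and 296.6 CPM in the same pools, below CAB1 alone in pools 6 and 28 and above it in pools 11 and 29.

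The related gene SODCC.1 did not share this pattern throughout. It was seen in 45.2% of the cells, at 304.9 CPM (267.9 to 345.7) over all, and 78 cells had both transcripts, 51 SODCC.2 alone and 59 SODCC.1 alone. In cells with C2 SODCC.1 stood at 369.8 CPM (303.4 to 446.5) against 267.7 CPM (224.6 to 316.6) without, a ratio of 1.38 (1.06 to 1.79). SODCC.2 had 2.24 (1.75 to 2.88), and these intervals just overlap. With 10 or more C2 UMIs SODCC.1 stood at 510.1 CPM (353.3 to 712.8), above its interval without C2. As with SODCC.2, its lowest CAB1 class was that with 10 or more UMIs, at 201.01 CPM (135.6 to 286.96). That interval overlapped the one of SODCC.1 in cells without CAB1. In cells with at least 3 GAPC3 UMIs it was lower, at 152.9 CPM (98.9 to 225.7) against 344.0 CPM (299.9 to 392.7), with log2 ratios of -0.68, -1.80, -0.61 and -0.72 in pools 6, 11, 28 and 29. These rested on 7, 4, 4 and 10 SODCC.1 UMIs in the GAPC3 cells. The interval of the ratio excluded 1 in pool 11 only, at 0.0689 to 0.705. Below 0 in every pool were 15.7% of the features.

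As a share of the UMIs of both genes, SODCC.2 made up 77.1% (exact 95% interval 68.0% to 84.6%) in the GAPC3 cells and 45.9% (41.0% to 50.9%) in the others. The share in GAPC3 cells against the others was 78.1% and 52.7% in pool 6, 88.2% and 53.5% in pool 11, and 73.0% and 36.7% in pool 29. In pool 28 it was 33.3% and 46.1%, from 6 UMIs in the GAPC3 cells. With C2 the share was 58.5% (52.2% to 64.5%) and without it 46.5% (40.2% to 52.8%), intervals that just overlap. With and without C2 it was 70.0% and 55.3% in pool 6 and 63.2% and 57.6% in pool 11. It was 52.9% and 39.6% in pool 28 and 50.5% and 37.6% in pool 29. The value was higher with C2 in each pool, but the intervals overlapped in all 4. The pools differed as well, with 62.1%, 60.9%, 45.1% and 44.0% in pools 6, 11, 28 and 29.

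**Figure D3:**
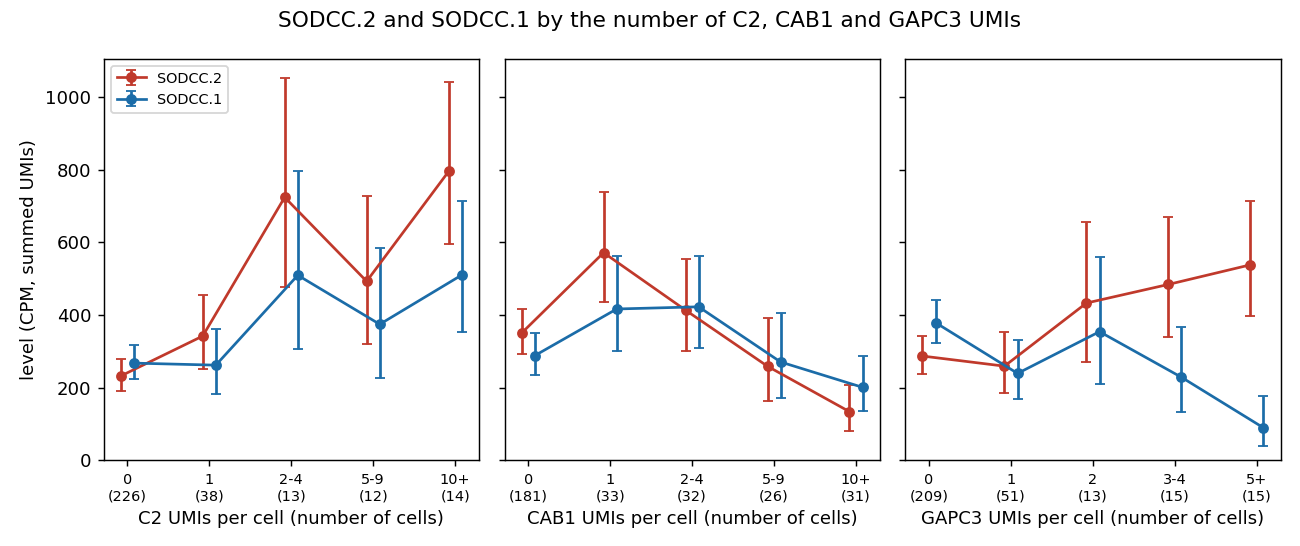
Levels of SODCC.2 (red) and SODCC.1 (blue) in CPM from summed UMIs (vertical axis) in cells grouped by their UMIs of C2, CAB1 or GAPC3 (horizontal axis, number of cells in brackets); bars are exact 95% Poisson intervals. Of the classes by C2 both genes are highest in that with most C2, and of those by CAB1 lowest in that with most CAB1. The genes part in the class with 5 or more GAPC3 UMIs, at 538.1 CPM for SODCC.2 and 89.7 CPM for SODCC.1.

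Other antioxidant genes could not be compared, because of 71 symbols listed for superoxide dismutases, catalases, ascorbate peroxidases, glutathione enzymes and related proteins only SODCC.1 was found by name. Of 15 flavonoid symbols only C2 was found. A gene whose symbol was not found may still be counted, since 16985 of the 17140 features bear an identifier alone. All 10 aquaporin features were set against SODCC.2, of which 6 had at least 50 UMIs. NIP1-1 stood at 250.4 CPM in cells with a SODCC.2 UMI and at 56.8 CPM in those without, PIP1-3 at 155.2 and 123.1 CPM, and PIP2-1 at 244.2 and 444.9 CPM. In the same order SIP1-2 stood at 664.2 and 369.2 CPM, TIP1-1 at 579.4 and 438.6 CPM, and PIP2-2 at 192.4 and 309.3 CPM. The 4 markers listed for the endothecium, the chloroplast-bearing layer of the anther wall, are CAB1, RBCS, PSAH and RCA1. All 4 had lower values in cells with SODCC.2, as did 46.4% of the features with at least 50 UMIs. PSAH had a log2 ratio of -0.18, and RCA1 rested on 4 UMIs against 7. Their summed level was 1397 CPM with SODCC.2 and 1972 CPM without. The median cell went the other way, at 157.7 CPM with SODCC.2 and 0 without, and the highest cells had 13566 and 15900 CPM. The epidermis, meiocyte and division lists matched 1 gene each, CR4, RAD51B and PCNA, with 12, 6 and 5 UMIs, and the tapetum list matched none, so SODCC.2 could not be placed among these cell types.

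The features most like SODCC.2 were sought within each pool by the correlation of count residuals, which compare a cell's UMIs with the number its depth and pool predict. Correlations in counts this sparse are low by nature, and the cells of a pool share a library and each cell's features share its total. Of 3170 features with at least 50 UMIs, 45 had a correlation of at least 0.2 in every pool, or 1.42%. The 5th and 95th percentiles of all features were -0.19 and 0.31 in pool 6, -0.21 and 0.29 in pool 11, -0.17 and 0.25 in pool 28, and -0.19 and 0.25 in pool 29. The count depended on a few cells: with the highest SODCC.2 cell of each pool left out, 12 features reached 0.2, of which 9 were among the 45. The last feature inside the limit had a lowest correlation of 0.201 and the first outside had 0.186.

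Only C2 and NIP1-1 of the 45 had a symbol, out of 76 symbol-bearing features tested. C2 had correlations of 0.54, 0.39, 0.39 and 0.40 in pools 6, 11, 28 and 29, from 55, 78, 79 and 91 cells, and ranked 5 by its lowest value. NIP1-1, a nodulin-26-like channel of the aquaporin family, had 0.38, 0.47, 0.34 and 0.34 and ranked 10. NIP1-1 stood at 56.8 CPM (33.7 to 89.8) in cells with no SODCC.2 UMI, 136.5 CPM (91.4 to 195.98) at 1 UMI, 183.8 CPM (97.9 to 314.3) at 2 and 395.0 CPM (312.7 to 492.2) at 3 or more. Without the highest cell of each pool the lowest correlations were 0.27 for C2 and 0.18 for NIP1-1.

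The other 43 bear an identifier with no name in the gene table. Zm00001d045254 came first, with 0.45, 0.46, 0.45 and 0.45 in pools 6, 11, 28 and 29, and stood at 4219 CPM in cells with SODCC.2 and 1032 CPM in those without. Zm00001d033062 came second, with 0.50, 0.46, 0.42 and 0.40. C2 apart, 38 of the 44 had a log2 ratio of at least 1 in cells with C2 over those without, against 3.50% of all features. Their median was 2.11, beside 0.00 over all features. The 44 were picked in these same cells for following SODCC.2, which itself followed C2. The choice thus favoured features high with C2, and this share is no independent result. The 44 were also better counted, with a median level of 281.8 CPM against 104.98 CPM in the features tested. In the GAPC3 split 1 of the 44 reached a log2 ratio of 1, against 11.0% of all features. At -1 or below were 5 of the 44, against 376 of 3169 features tested, and their median was -0.39, beside 0.09 over all. GAPC3 itself had correlations with SODCC.2 of 0.31, 0.24, -0.13 and 0.35 and SODCC.1 of -0.16, 0.33, 0.12 and 0.02, so neither followed it in every pool. CAB1 had -0.06, -0.43, -0.06 and -0.21 in pools 6, 11, 28 and 29, below 0 in each.

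Further symbols stood lower in rank. SIP1-2, a small basic intrinsic protein of the aquaporin family, had 0.35, 0.29, 0.07 and 0.26 in pools 6, 11, 28 and 29, and TIP1-1, a channel of the vacuolar membrane, had 0.36, 0.32, 0.02 and 0.05. ADF3, an actin-depolymerizing factor, ANT1, a mitochondrial ADP/ATP carrier, BIPE2, a chaperone of the endoplasmic reticulum, and IPP had lowest values from 0.00 to 0.05. These are weak, and 12.4% of all features were above 0 in every pool.

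At the opposite end, 38 features (1.20%) were at -0.1 or below in every pool, 5 of them with a symbol. They were infA, a plastid translation initiation factor, psaC, a photosystem I subunit, cemA, a plastid envelope protein, psbC, a core antenna protein of photosystem II, and HMGIY2, a DNA-binding protein of chromatin. The first 4 are plastid-encoded. The limit of -0.1 is less strict than the 0.2 used above, so the counts at the opposite ends are not like for like. By its highest correlation, -0.17, infA ranked 3 from the bottom, so fewer than 3 features reached -0.2 in every pool. infA had correlations of -0.23, -0.40, -0.20 and -0.17 in pools 6, 11, 28 and 29, psaC had -0.19, -0.37, -0.16 and -0.20, and HMGIY2 had -0.21, -0.14, -0.14 and -0.14. Zm00001d015385, which has no symbol and had the lowest value of all by its highest correlation in any pool, had -0.25, -0.39, -0.25 and -0.24. It stood at 324.9 CPM in cells with a SODCC.2 UMI and at 586.9 CPM in cells without one. In cells with 3 or more SODCC.2 UMIs psaC stood at 60.0 CPM (31.0 to 104.8) against 274.5 CPM (219.9 to 338.6) in cells with none, and HMGIY2 at 305.0 CPM (233.3 to 391.8) against 637.4 CPM (552.6 to 731.7). Since levels are shares of a cell's UMIs, a high plastid share lowers the share of every other feature. How far this bears on these correlations was not tested. With the 20 most abundant features left out of the totals, an alternative chosen after seeing the data, infA had -0.17, -0.33, -0.18 and -0.16 in pools 6, 11, 28 and 29 and psaC had -0.12, -0.30, -0.14 and -0.19. HMGIY2 had -0.22, -0.13, -0.14 and -0.15 in the same pools, and CAB1 had -0.02, -0.36, -0.04 and -0.19. Under that scaling cemA and psbC were no longer at -0.1 or below in pool 28, at -0.098 and -0.078. Both are themselves among the 20 features left out of the totals, whereas infA and psaC are not, so the values are not like for like.

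**Figure D4:**
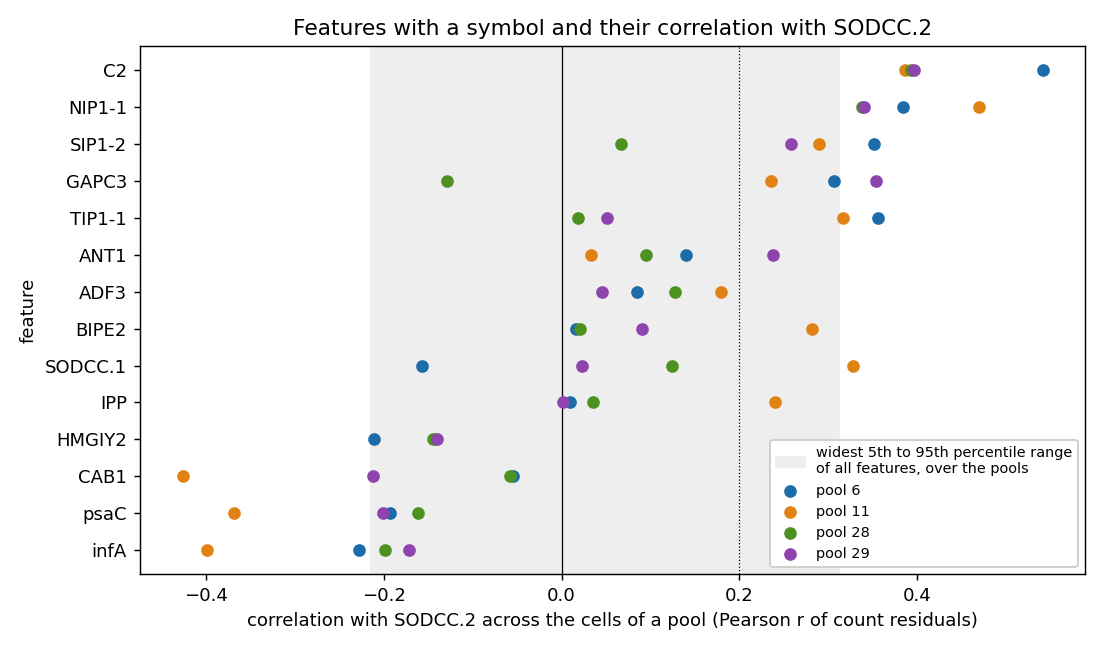
Correlation with SODCC.2 across the cells of each pool (horizontal axis, Pearson r of count residuals) for symbol-bearing features, 1 point per pool; the dotted line marks 0.2 and the grey band the widest 5th to 95th percentile range of all features. C2 and NIP1-1 lie right of the line in all 4 pools, and infA, psaC, HMGIY2 and CAB1 left of 0 in all 4.

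The features were then set against SODCC.2 in cells with no C2 UMI. These cells numbered 37, 52, 67 and 70 in pools 6, 11, 28 and 29 and held 26, 38, 19 and 35 SODCC.2 UMIs, and 39 of the 45 features kept at least 20 UMIs there. None of the 39 reached 0.2 in every pool, which 3 of the 5269 features tested there did, or 0.0569%. Above 0 in every pool were 18 of the 39 and 7.72% of the features tested. NIP1-1 had 0.26, 0.24, 0.11 and 0.16 in pools 6, 11, 28 and 29. In cells with neither C2 nor at least 3 GAPC3 UMIs, which held 78 SODCC.2 UMIs, 38 of the 45 features kept 20 UMIs. There 2 of the 38 reached 0.2 in every pool, against 4 of 4090 features tested, or 0.0978%, and 18 were above 0 in every pool, against 5.13%. NIP1-1 had 0.37, 0.43, 0.10 and 0.20 in these cells, close to its values over all cells in pools 6 and 11 and below them in pools 28 and 29. The 45 had been chosen on all cells, these included, so none of these counts is independent.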

How the data were processed

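The deposited values are UMI counts for each feature in each cell, unscaled by the authors. Libraries followed a modified CEL-Seq2 protocol, which tags the 3′ ends of transcripts, per the labels' protocols. The submitters' processing notes name HISAT2 as a tool and B73 RefGen_v4 as the genome build; not given in the sources used here are its version, the annotation, the UMI counter and any cell filter. The RefSeq gene table is of another assembly, Zm-B73-REFERENCE-NAM-5.0, and served for names only and no coordinates or sequences are given.

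The gene, lists and splits were chosen with earlier results of these data known. All cells were used. CPM is the summed UMIs of a feature over the summed UMIs of the cells, times 1000000; Poisson, Clopper-Pearson and conditional binomial (ratio) intervals at 95% used scipy 1.17.1. Log2 ratios had 10 CPM added to both sides. Correlations used residuals with theta 100, clipped at the square root of the number of cells, for features with at least 50 UMIs. Named features were the 8 symbols and 2 identifiers with the highest lowest-of-4 correlation, and the 3 symbols and 1 identifier with the lowest highest-of-4 value; cemA and psbC were added after their values were seen. The scripts were tested on simulated counts. A class cut from UMIs of 1 gene is a range, not a cell type. Cells without a transcript may hold it uncaptured.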

Additional observations from a re-analysis of the deposited data

How the results depend on the processing

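Every alternative was a description of the same cells, with no replicates to test against. No paired analysis was possible because all cells form 1 group. The log2 ratio of SODCC.2 in cells with C2 lay between 1.03 and 1.51 over its 17 alternatives, all within the counting interval of the main value. Leaving out the 20 most abundant features from the totals raised the level to 406.1 CPM over all cells and 479.0 CPM in pool 11. The share of cells with a UMI was 49.8% in cells with at least 500 features, 51.7% at barcodes 1 to 48 and 26.0% at 1000 UMIs. The CAB1 log2 ratio was -0.63 with at least 3 CAB1 UMIs, -1.32 with at least 10 and -0.50 in cells with fewer than 3 GAPC3 UMIs. The GAPC3 log2 ratio was 1.21 at 1000 UMIs, from 4 SODCC.2 UMIs in 5 cells, and 0.015 in cells with no CAB1 UMI; the cause was not tested. The 45 features became 12 without the highest cell of each pool, 27 with log2-transformed counts, 96 at a limit of 0.1, 17 at 0.3 and 394 above 0. At 1000 UMIs 0 of 565 features reached 0.2. With Spearman correlation 43 reached it, of which 15 were among the 45. The subsets by C2, CAB1 and GAPC3, the depth limit of 3000 UMIs and, for correlations, the smaller totals were chosen after seeing the data. With 270 SODCC.2 UMIs, depth limits every split within a pool.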
